A study of Rattus norvegicus with 11 samples.

Results

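miR-338, miR-451 and miR-184 are 3 microRNAs (miRNAs) that have been reported to change in rodent islets when beta-cell mass grows in pregnancy, obesity or insulin resistance. They were followed here, probe by probe, in pancreatic islets of daughters of fathers fed a high-fat diet and of daughters of control fathers. The members are all miRNAs on the arrays whose name has 1 of these 3 stems, with any arm suffix and no star. This rule found 3 of the 687 miRNA names measured, rno-miR-338, rno-miR-451 and rno-miR-184, all among the 340 names that both array designs carry. Each was read by the same 2 probes on both designs, with 10 spots per probe, so 20 spots per array stand behind each value.

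The 11 Agilent arrays, each with 1 sample of islet RNA, were 5 from the HFD group and 6 from the Control group. HFD samples came from female Sprague Dawley rats whose fathers had eaten pellets with 43% fat, and Control samples from females of the same strain whose fathers had eaten chow with 9% fat. All fathers were mated at 15 weeks of age with females on chow, all daughters were weaned onto chow at 3 weeks, and no high-fat diet of the daughters is described. Tolerance to injected glucose was measured in daughters of both groups at 6 and again at 12 weeks, and to insulin at 11 weeks, before islets were taken at 13 weeks. Fathers of the HFD group were heavier, glucose intolerant and insulin resistant, and their daughters were glucose intolerant with a weak acute insulin response but did not differ in body weight, per the series' description. Common fathers and litters of the daughters are not given by the labels, nor whether a sample pooled animals, so each p-value measures the spread between these samples only.

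MicroRNAs are short RNAs that guide an Argonaute protein to messenger RNAs, mostly through the seed near their 5′ end, and lower the output of those messages. In islets, miR-338-3p has been reported to fall in pregnant and obese rodents, where its reduction goes with beta-cell proliferation and survival, and its gene lies inside Aatk, which encodes a kinase. miR-451 is abundant in red blood cells and their precursors, where it promotes maturation, and it is cut from an unusually short hairpin by Argonaute 2 without Dicer. miR-184 has been reported to be silenced in islets of insulin-resistant mice, and in mouse beta cells it represses the message of Argonaute 2 and restrains beta-cell expansion.

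The mature sequences show what each name stands for and that the 3 miRNAs cannot be grouped by seed. They are printed 5′ to 3′ from RefSeq on build GRCr8, with the seed, bases 2 to 8, in capitals. The deposited files hold no probe sequence, so the arms miR-338-3p and miR-451-5p were assigned from the naming convention that the name without a star is the major arm. All 3 members were matched to RefSeq.
rno-miR-338-3p: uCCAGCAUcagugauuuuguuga
rno-miR-451-5p: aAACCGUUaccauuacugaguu
rno-miR-184: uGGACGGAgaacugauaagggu
miR-338-3p, 23 bases long, lies at chr10:105796345-105796367 on the minus strand, within the span of Aatk. miR-451-5p, 22 bases long, lies at chr10:63459585-63459606 on the plus strand, and miR-184, also 22 bases, at chr8:99222991-99223012 on the minus strand, neither within an annotated gene other than its own. None of the 3 seeds was shared with another of the 693 mature rat miRNA names in the RefSeq table.

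The hairpin of miR-451 is shown because its mature strand is placed unlike that of other miRNAs. In the 72 bases at chr10:63459569-63459640 on the plus strand, the mature miRNA, in capitals, starts at base 17 and runs from the 5′ arm into the loop.
Mir451a hairpin: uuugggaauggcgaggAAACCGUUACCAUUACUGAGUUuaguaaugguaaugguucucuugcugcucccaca

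On these arrays miR-338 was detected in most islet samples at a low level with no difference between HFD and Control that passed the test, miR-451 was detected on the arrays of the second design only, and miR-184 was detected on no array. The scanner software calls a miRNA detected where at least 1 of its probes reads at 3 or more times its error, a rule that held for every miRNA on all 11 arrays. By that rule miR-338 was detected on 4 of 5 HFD and 5 of 6 Control arrays, miR-451 on 1 of 5 HFD and 2 of 6 Control arrays, and miR-184 on 0 of 5 and 0 of 6. Of the 340 shared names, 126 (37.1%) were detected on 9 or more arrays and 133 (39.1%) on 0 of 11.

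**Figure D1:**
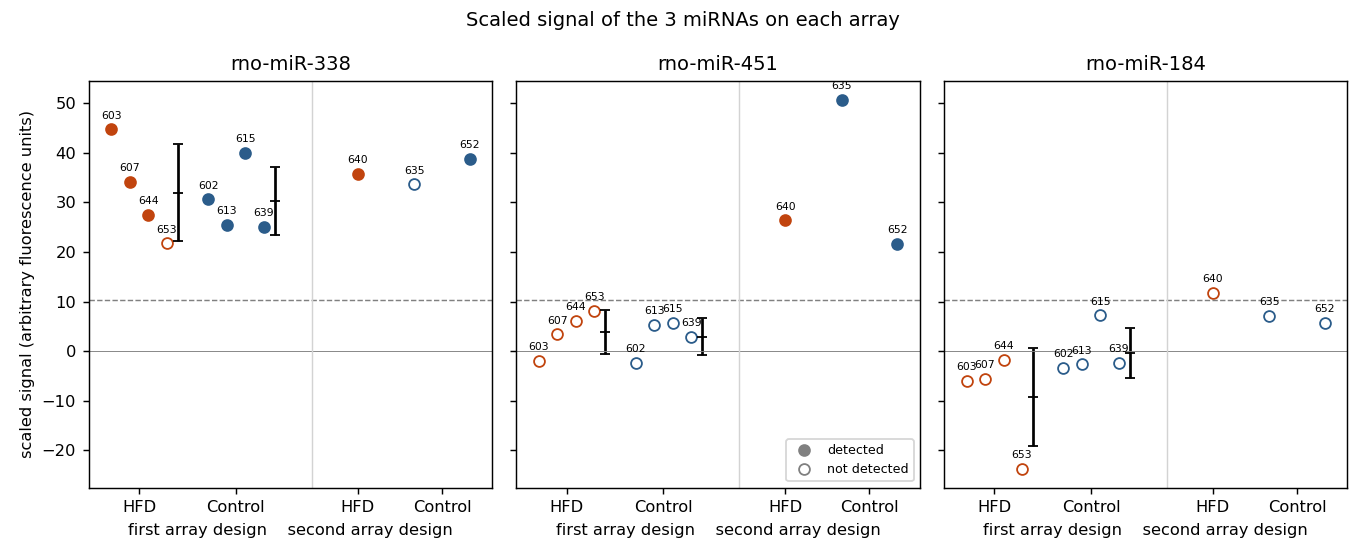
Scaled signal in arbitrary fluorescence units of each miRNA on each array, with HFD in orange left of Control in blue and the animal number above each point. Filled points are detected and open points are not, black bars are the mean and SD of the 4 arrays of a group on the first design, and the dashed line is the floor of 10.3. miR-338 lies above the floor on all 11 arrays with overlapping groups, miR-451 above it on 3 of 3 arrays of the second design alone, and miR-184 above it on HFD 640 alone.

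Both groups were present on both designs, with 4 HFD and 4 Control samples on the first and 1 HFD and 2 Control samples on the second. Each design was 1 slide and 1 scan with its own software version, so design, slide, scan and software version cannot be told apart. The number of arrays, and on the second design the single HFD sample, limits the precision of every value below. On the first design the arrays detected 105 to 157 of the 340 shared names in HFD and 138 to 153 in Control, and on the second HFD 640 detected more than the 130 and 163 of the Control arrays. HFD 653 stood apart on the first slide, with the fewest detected names, 105, and an SD of its negative-control spots of 12.9 units against 2.26 to 3.65 on the other 7 arrays. Of the islet endocrine list, miR-375, miR-7a, miR-7b and miR-183 were detected on 11 of 11 arrays, but its remaining name, the member miR-184, on 0 of 11. The liver and muscle markers miR-122, miR-1, miR-133a and miR-206 were detected on 0 of 11. Of the acinar miRNAs, miR-216a was detected on 11 of 11 arrays and miR-217 on 4 of 11, and their list summed to 106 to 666 units in HFD and 21.0 to 623 units in Control on the first design. The leukocyte list summed to 33.6 to 356 units in HFD and 33.1 to 40.4 units in Control there, and to 145.8 units in HFD against 77.8 and 147 units in Control on the second. Its 2 tested members were miR-150, with a fitted log2 difference of 1.73 ± 0.61 (SE), and miR-223, with 0.14 ± 0.31, both at a limma adjusted p of 0.987. The part of exocrine cells and leukocytes in the members' values was not tested. In such bulk samples fewer cells of a type and less RNA per cell cannot be told apart.

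miR-338 was the only member detected widely enough for the test across miRNAs. On the first design its scaled signal was 44.7, 34.1, 27.5 and 21.7 units in HFD 603, 607, 644 and 653, against 30.6, 25.5, 40.0 and 25.1 units in Control 602, 613, 615 and 639. The HFD arrays thus held both the highest and the lowest of the 8 values, and the groups overlapped, where 1 of 152 tested miRNAs (0.658%) had every HFD value above every Control value on that design and 1 (0.658%) every HFD value below. On the second design HFD 640 read 35.8 units, between Control 635 at 33.7 and Control 652 at 38.8 units. The first-design means were 32.0 ± 9.87 units in HFD and 30.3 ± 6.91 units in Control (SD, n = 4 each), a gap well inside the spread of either group.

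The fitted difference in miR-338, HFD minus Control on the log2 scale with array design as a block, was 0.04 ± 0.20 (SE; 5 HFD and 6 Control arrays), with a limma adjusted p of 0.987. Its 95% interval ran from -0.40 to 0.47, that is from 0.759-fold to 1.39-fold around an estimate of 1.03-fold. Changes within that interval were not excluded, and the interval is not the limit of what the test adjusted over 152 miRNAs could detect. An exact 2-sided permutation test within array design gave p = 0.871 over 210 splits, the smallest possible p being 0.0048. None of the 152 miRNAs tested passed the limma adjusted p threshold of 0.05, a background of 0%, and 3 of 152 (1.97%) had an unadjusted p under 0.05. miR-338 ranked 126 of 152 by p, and its difference lay close to the median of all tested miRNAs, 0.07. The sign of so small a difference was not stable, since it read -0.19 with a 75th percentile taken over the full set of shared names, -0.12 when scaled by the median and -0.35 after quantile normalisation.

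The difference also changed sign between the rows of the first slide, in which 2 HFD and 2 Control arrays lay per row. In row 1 miR-338 averaged 5.29 in HFD and 4.81 in Control on the log2 scale, a difference of 0.48. In row 2 it averaged 4.61 in HFD and 4.99 in Control, a difference of -0.38. HFD 653, the array with the wide negative-control spots, lay in row 2 and gave the lowest value of miR-338. Without it the fitted difference was 0.16, and without HFD 603, the highest, it was -0.09, with a limma adjusted p of 0.988 and 0.941 in those fits. A fit of whether the difference itself changed between the designs gave -0.07 on the log2 scale (second minus first, limma adjusted p = 0.996).

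**Figure D2:**
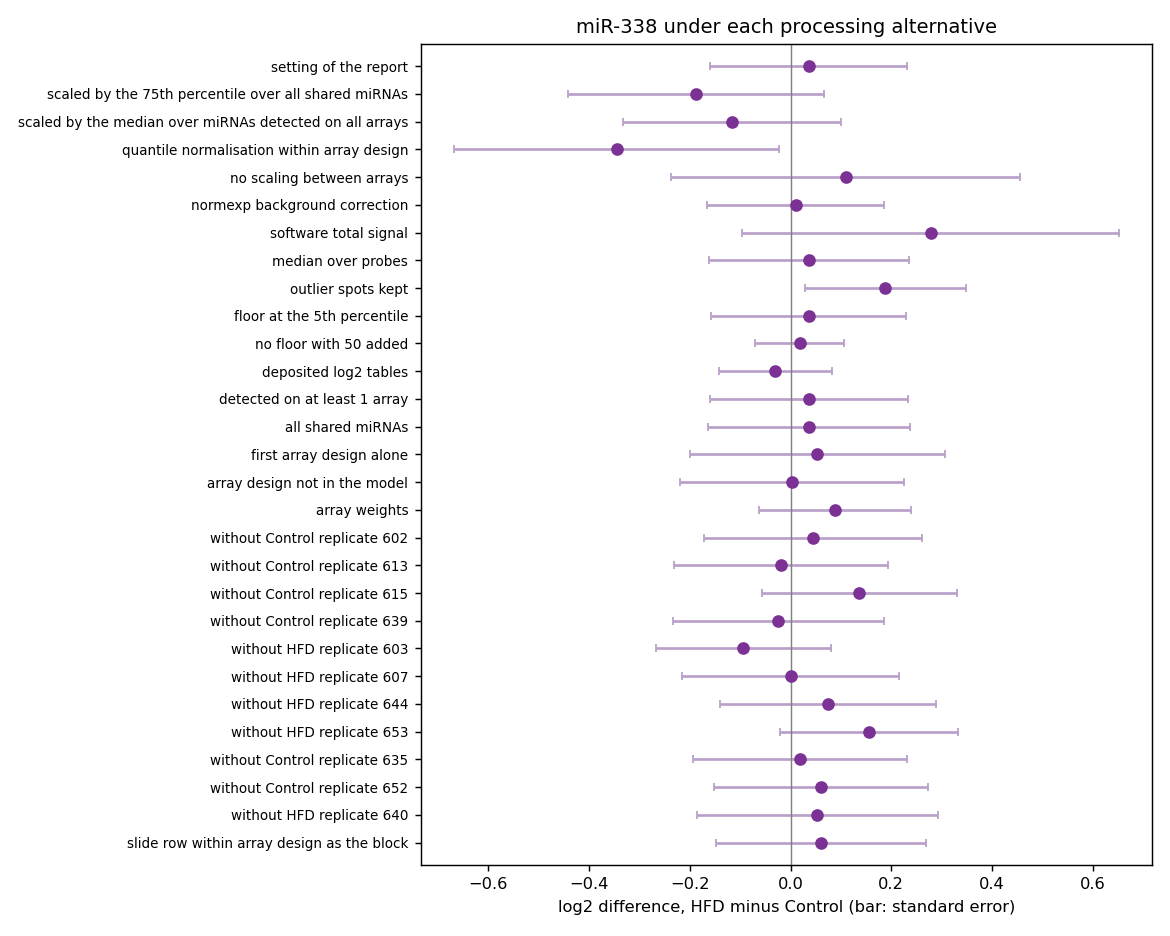
Difference in miR-338, HFD minus Control on the log2 scale, with its standard error, in the setting used here (top) and under each of 28 alternatives. The points lie between -0.35 and 0.28, on both sides of 0, and 21 of 28 are above 0.

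The 2 probes of miR-338 did not order the groups alike on the first design. Probe A_26_P00001065 averaged 18.5 ± 5.60 units in HFD and 15.5 ± 3.97 units in Control (SD, n = 4 each). Probe A_26_P00001066 averaged 13.5 ± 4.64 units in HFD and 14.8 ± 3.27 units in Control. The first was thus higher in HFD and the second lower, in each case by less than 1 SD. HFD 640, on the second design, read 20.1 units on the first probe, against 20.7 and 20.1 units in Control 635 and 652. On the second probe it read 15.8 units, against 13.0 and 18.8 units, again between or at the Control values.

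The depth of signal behind these values was thin. On the first design 57 of 80 spots of miR-338 in HFD and 59 of 80 in Control exceeded the 99th percentile of their array's negative-control spots, and 34 of 80 in HFD against 13 of 80 in Control were marked well above background. That mark was unevenly spread, on 14, 16, 4 and 0 of 20 spots in HFD 603, 607, 644 and 653, against 2, 4, 7 and 0 of 20 in Control 602, 613, 615 and 639. On the second design it stood on 14 of 20 spots in HFD 640, against 0 of 20 in Control 635 and 17 of 20 in Control 652. The brighter probe stood at 5.25, 5.56, 4.40 and 0.659 times its error in HFD 603, 607, 644 and 653. In Control 602, 613, 615 and 639 the corresponding ratios were 4.02, 4.25, 4.36 and 3.43. Where miR-338 was detected, its brighter probe thus stood between 3.43 times its error, in Control 639, and 5.56 times, in HFD 607. The 2 arrays without detection were HFD 653, at 0.659, and Control 635, at 2.40, and on Control 635 the scaled signal was close to that of its neighbours all the same. An exact permutation test of detection within array design gave p = 1, where the smallest possible p is 0.167.

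**Figure D3:**
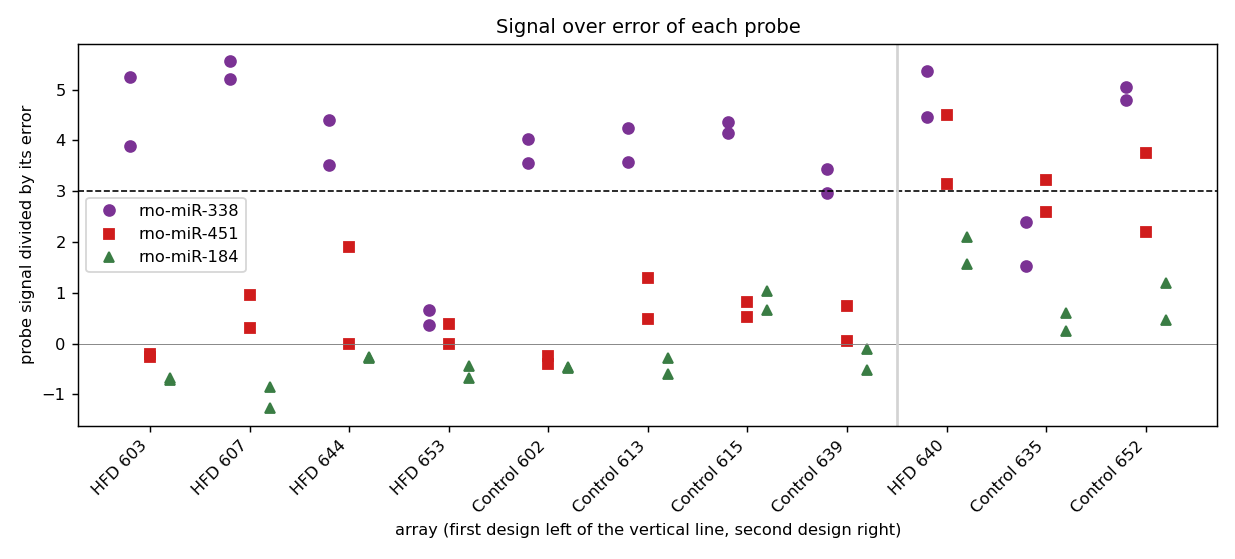
Signal of each of the 2 probes of miR-338 (circles), miR-451 (squares) and miR-184 (triangles) divided by its error, per array, with the dashed line at the 3 errors that make a miRNA detected. HFD arrays stand left of Control arrays within each design. At least 1 probe of miR-338 lies above the line on every array except HFD 653 and Control 635, miR-451 crosses it only on the 3 arrays of the second design, and miR-184 reaches at most 2.10, on HFD 640.

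Across the 11 arrays, centred within design, the miRNAs whose log2 values were most like those of miR-338 among the other 151 tested were miR-16, miR-130a and miR-15b. Pearson's r was 0.868 for miR-16, a widely expressed miRNA that is also abundant in blood cells (Spearman's rho 0.782). It was 0.822 for miR-130a (rho 0.864) and 0.784 for miR-15b, a relative of miR-16 (rho 0.745). These are descriptions over 11 points that share a scaling factor per array, and the highest of many are shown. Without HFD 603 and HFD 653, the arrays farthest from the median of miR-338, r was 0.727 for miR-16 and 0.731 for miR-130a but 0.291 for miR-15b, so the last rests on those arrays. None of the 3 passed the limma test between the groups, with fitted log2 differences (HFD minus Control) of 0.0029 ± 0.10, 0.05 ± 0.11 and 0.09 ± 0.22 (SE) for miR-16, miR-130a and miR-15b.

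The other RNAs of the miR-338 locus were not detected. The star strand, miR-338*, is read by 4 probes and was detected on 0 of 11 arrays. Its scaled signal was -15.1, -8.97, -12.6 and 39.3 units in HFD 603, 607, 644 and 653, against -12.1, -12.2, -15.1 and -11.2 units in Control 602, 613, 615 and 639. The 1 value above 0 there was that of HFD 653, the array with the wide negative-control spots, where its brightest probe stood at 1.25 times its error. The second-design arrays read 4.31 units in HFD 640, against -12.3 and -2.50 units in Control 635 and 652. On the opposite strand of the same locus lies miR-3065, and its 5p arm is shown because all 20 of its bases pair in 1 run with miR-338-3p.
rno-miR-3065-5p: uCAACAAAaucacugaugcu
It lies at chr10:105796345-105796364 on the plus strand, is carried by the second design only and was detected on 0 of 3 arrays, as was miR-3065-3p. miR-338 also stood on a list of neuronal miRNAs, of which miR-124, miR-9 and miR-218 were detected on 0 of 11 arrays and miR-128 on 9. The summed signal of that list was 70.8 to 85.7 units in HFD and 65.0 to 86.0 units in Control on the first design.

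Detection of miR-451 followed the array design, with both paternal diets on either side of the split. On the first design its unscaled signal was -1.30, 3.32, 6.31 and 5.22 units in HFD 603, 607, 644 and 653, against -1.75, 5.07, 4.48 and 2.61 units in Control 602, 613, 615 and 639. All 8 values lie around the background, the groups overlap, and the exact permutation test gave p = 0.629 over 70 splits. The second-design arrays read 55.6 units in HFD 640, against 50.8 and 50.1 units in Control 635 and 652, and 17 of 20 spots in HFD and 32 of 40 in Control exceeded the 99th percentile of the negative controls. The same 2 probes gave both sets of values, and the pattern of detection on 3 of 3 arrays of the second design and 0 of 8 of the first was shared by 8 of 340 names (2.35%). The others were miR-126*, miR-290, miR-369-3p, miR-376b-5p, miR-381, miR-384-3p and miR-539, and 0 of 340 names showed the reverse. Whether the samples, the slide, the scan, the software version or the design made that split cannot be told apart.

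Within the second design the order of HFD and Control for miR-451 depended on how the same spots were read. The unscaled signal was nearly level, with the highest of the 3 arrays 1.11 times the lowest, the most even of the 128 miRNAs detected on all 3 arrays, whose median spread was 2.40-fold. The scaling factors of those arrays differ by 2.32 times, and after scaling HFD 640 read 26.4 units, against 50.8 and 21.6 units in Control 635 and 652. HFD 640 thus lay above both Control arrays before scaling and between them after it. For comparison, the islet miRNA miR-375 spread 2.0-fold on these arrays before scaling and 1.16-fold after it.

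The value that the scanner software wrote for miR-451 differed again. On the second design the software sums only probes at 3 or more times their error, which included both probes on HFD 640 and 1 probe on each Control array. Its total was therefore 34.5 units in HFD 640, against 18.9 and 19.4 units in Control 635 and 652, a log2 ratio of HFD to the Control mean of 0.85. Summed over both probes on every array, the software's own probe values were 34.5 units in HFD 640, against 33.7 and 30.1 units, a log2 ratio of 0.12. The probe left out of the Control totals, A_26_P00001589, read 22.0 units in HFD 640, against 22.3 and 17.8 units in Control 635 and 652, at 3.14 times its error in HFD 640, against 2.58 and 2.19 times. The larger ratio thus comes from which probes entered the sum. The authors' deposited log2 table of the second design holds that software total, so the same difference stands in it.

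**Figure D4:**
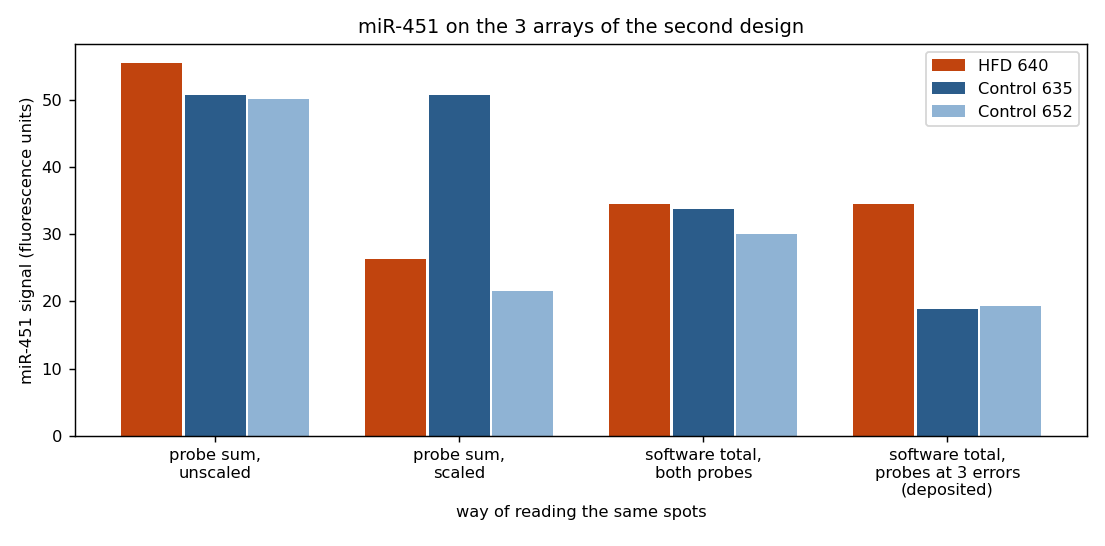
miR-451 signal in fluorescence units on HFD 640 (orange), Control 635 (dark blue) and Control 652 (light blue), read 4 ways from the same spots. The 3 arrays are level in the unscaled probe sum and in the software total over both probes, Control 635 is highest after scaling, and HFD 640 is highest at 34.5 units in the deposited total.

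Over both designs the within-design difference in miR-451 on the log2 scale was -0.08 (HFD minus Control), with an exact permutation p of 1. That test could not go below 0.333, because all first-design values stood at the floor. With unscaled signals and no floor the difference was 1.87 units, with an exact permutation p of 0.31 and a smallest possible p of 0.0048. No fold change is given, since miR-451 was not detected on the first design in either group.

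RNAs that accompany miR-451 elsewhere were looked at beside it. The gene of miR-144, a miRNA transcribed together with miR-451 in red cell precursors, ends 89 bases before the hairpin of miR-451, and its mature strand is given for comparison of the neighbours.
rno-miR-144-3p: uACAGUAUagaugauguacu
miR-144, at chr10:63459446-63459465 on the plus strand, was detected on 0 of 11 arrays, also on the 3 arrays that detected miR-451. miR-451* and miR-144*, carried by the second design only, were detected on 0 of 3. The red blood cell list held miR-451, miR-144, miR-486, miR-16 and miR-15b, of which miR-486 was not on both designs. Its summed signal on the first design was 1215 to 1727 units in HFD and 1362 to 1526 units in Control. On the second design, where miR-451 was detected, it was 1014 units in HFD and 1033 to 1048 units in Control, and the sum is carried by the widely expressed miR-16. The part of red cells in the miR-451 signal was not tested.

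miR-184 did not reach detection in any sample. On the first design its scaled signal was -5.98, -5.63, -1.74 and -23.8 units in HFD 603, 607, 644 and 653, against -3.44, -2.66, 7.24 and -2.34 units in Control 602, 613, 615 and 639. Values below 0 are signals under the background that the software subtracted, so 7 of 8 of these read no signal, and Control 615 alone was positive. The lowest value, in HFD 653, came from the array with the wide negative-control spots. On the second design miR-184 read 11.8 units in HFD 640, against 7.14 and 5.68 units in Control 635 and 652.

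HFD 640 thus had the highest miR-184 reading of the series, yet it stayed under the detection limit. Its brighter probe stood at 2.10 times its error, against 0.605 and 1.19 times in Control 635 and 652. Of its 20 spots 17 were marked positive and significant, against 5 and 7 of 20 in Control 635 and 652. The 99th percentile of the negative controls was exceeded by 1 of 20, against 0 and 1 of 20. The undetected miR-144 also read high on HFD 640, with 15 of 20 spots so marked and its brighter probe at 2.04 times its error. In Control 635 and 652 miR-144 had 5 and 6 of 20, at 0.752 and 0.971 times. The undetected miR-451* had 3 of 20 on HFD 640, against 1 and 0 of 20. The within-design difference over both designs was 0.05 on the log2 scale, with an exact permutation p of 0.333, the smallest that test can give with 10 of 11 values at the floor. On the first design alone, with no floor, miR-184 averaged -9.29 units in HFD and -0.301 units in Control, with an exact permutation p of 0.114. No fold change or direction is given for a miRNA detected in neither group.

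A list of other miRNAs reported in pregnancy or obesity of rodents was set beside the 3. Of its 10 names, 6 were tested, 4 had a fitted difference above 0 and 2 below, and 0 passed the limma adjusted p threshold of 0.05. Their median difference was 0.15 on the log2 scale, beside 0.07 and 108 of 152 (71.1%) above 0 over all tested miRNAs. The 3 with the smallest p were miR-210, a hypoxia-induced miRNA, at -0.28 ± 0.14, miR-383, read by different probes on the designs, at 0.41 ± 0.26, and miR-34a, a p53-induced miRNA, at 0.23 ± 0.34 (SE), each with a limma adjusted p of 0.987. For miR-210 and miR-34a the designs differed in sign. miR-210 averaged 7.10 in HFD and 7.52 in Control on the log2 scale of the first design, and 6.32 in HFD and 6.20 in Control on the second. miR-34a averaged 7.40 in HFD and 7.03 in Control on the first, and 6.16 in HFD and 6.36 in Control on the second. miR-383 was detected on 0 of 3 arrays of the second design. Of the names not tested, miR-203, miR-144 and miR-218 were detected on 0 of 11 arrays and miR-874 on 2 of 11, both Control.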

How the data were processed

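For each sample 100 ng of total islet RNA received the dye Cy3 and was hybridised to a 1-colour array, per the labels' protocols. The deposited spot intensity comes, per the file headers, from Agilent Feature Extraction 10.5.1.1 (first design) or 10.7.3.1 (second), background-subtracted within the array, with no step between arrays. There are also 2 log2 tables deposited by the authors. The first equals log2 of the software's total plus 50 (340 of 340 values within 0.01 on each array), and the second equals log2 of the total where detected (all but 2 or 3 values per array), with no scaling or centring in either and no ratio, so that no direction is involved. Their column medians over shared names ran from 5.69 to 5.83 in HFD and 5.68 to 5.70 in Control on the first design, and were 6.78 in HFD against 6.69 and 7.01 in Control on the second. RMA and Partek stand in the submitters' processing notes, with roles not given in the sources used here.

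Here, spots without an outlier flag were averaged per probe, probes were summed per miRNA, and arrays were brought to a common 75th percentile, taken over the 85 miRNAs that all 11 arrays detected. A floor of 10.3 units (log2 3.36), the 1st percentile of the scaled values of detected miRNAs, was then applied. miRNAs were matched between designs by name (350 names on the first, 677 on the second, 340 shared, 314 of them with the same probes). HFD minus Control was fitted by limma 3.58.1 (R 4.3.3) with a block for array design, 2-sided and Benjamini-Hochberg adjusted over the 152 miRNAs detected on at least 5 arrays. miR-451 and miR-184 failed that filter and were compared by exact permutation within array design. No member's probe had the larger part of its spots well above background on more than 2 of the 8 first-design arrays, so probes are given as values with no test. The files hold no mean spot signal, so the normexp alternative used the median signal. No spot was saturated. The fit was tested on simulated, normally distributed log2 values with no floor, so that test does not cover signals near the floor.

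The members, the lists and the rule for named miRNAs were chosen with earlier results of these data known. Named are the 3 members, the 3 miRNAs most like a tested member, the list of other miRNAs reported in pregnancy or obesity (values for the 3 smallest p and for miR-144), and marker lists. The RNAs of the members' loci (star strands and miR-3065) and the names that shared the detection pattern of miR-451 were added after the values were seen.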

Additional observations from a re-analysis of the deposited data

Results flagged for a closer look

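miR-184 in Control 615 lay far from the other Control arrays of the first design. Its scaled signal was 7.24 units, against -2.34, -2.66 and -3.44 units in Control 639, 613 and 602, a gap that makes up 0.897 of the group's range. Probe A_26_P00001416 of miR-184 showed the same array apart, with a gap of 0.83 of the range. Both readings of Control 615 were below detection, its brighter probe standing at 1.03 times its error. Of 20 such checks over the members and their probes 2 were marked, where chance alone marks about 1 in 20, and these 2 share the same spots.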

How the results depend on the processing

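The count of miRNAs past the threshold was 0 in 27 of 28 alternatives and 1 without scaling between arrays (limma adjusted p = 0.00062). miR-338 passed the threshold in 0 of 28 (limma adjusted p 0.801 to 1), with a difference above 0 in 21 and below 0 in 7. It reversed to -0.19 with a 75th percentile of the full shared set, -0.12 with the median and -0.35 with quantile normalisation. Those scalings moved the median of all tested miRNAs to -0.15, -0.08 and -0.07, from 0.07. In the authors' deposited tables the difference in miR-338 also reversed, to -0.030. They hold no miR-338 value for Control 635, so the second design entered there as HFD 640, at 5.55, against Control 652 alone, at 5.76. Leaving out 1 array gave -0.094 to 0.16, below 0 without HFD 603, Control 613 or Control 639.

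miR-451 reversed to 0.035 without scaling, 4.6e-05 with normexp, 0.10 with the software total, 0.063 with the median over probes, 0.058 with outlier spots kept and 0.22 in the deposited tables (exact permutation p 0.105 to 1 over alternatives). Leaving out 1 array gave -0.19 to 0.058, above 0 without Control 635. The difference in miR-184, for which no direction is given, rests on HFD 640 as the only array above the floor. It reversed to -0.026 with normexp, -0.0038 with no floor and -0.13 in the deposited tables (exact permutation p 0.114 to 1 over alternatives). Those tables hold no miR-184 value on the second design, so -0.13 comes from the first design alone. Without scaling between arrays it read 0.29, its highest value, and it read 0 in 5 alternatives. Leaving out 1 array gave 0 to 0.06. The causes of these reversals were not tested, save for the deposited miR-451 total.

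The slide row as a block was chosen after seeing the data and changed no call. The precision of every value is limited by signals near the detection limit, 11 arrays and 1 HFD array on the second design. No paired analysis was possible because the groups share no animal numbers.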
